A study of Mus musculus with 2 samples.

Results

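Ly6i Nos2 inflammatory monocytes were examined among leucocytes from MC38 tumours. MC38 is a colon carcinoma line of the mouse, here implanted into C57BL/6 females given either LC427, a compound known by its code name alone, or vehicle. Members were chosen by the UMI counts themselves, so the values of the genes used in the choice are a description and support nothing. A barcode was a member if it had at least 1000 UMIs (unique molecular identifiers, each standing for 1 captured transcript), at least 400 genes and at most 10% mitochondrial UMIs, if it held a UMI of the myeloid genes Csf1r, C1qa or Lyz2 and none of Cd3e or Ncr1, and if at least 2 of the genes Ly6i, Fpr2, Plac8, Nos2 and Ly6c2, called set C here, were detected. The number of detected set C genes also had to exceed that of each of the other 4 sets of 5 genes, drawn up for other myeloid states. The rule found 793 members among 4728 myeloid cells and 6328 cells of the LC427 library, and 299 among 3891 myeloid cells and 5245 cells of the vehicle library, 1092 of 11573 cells in all. The remaining 3935 LC427 and 3592 vehicle myeloid cells are called other myeloid cells.

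Both groups carried the same implanted tumour and were taken on day 14, and cells with the blood cell surface protein CD45 were selected on beads before droplet capture with 5′ chemistry. The series title names LRBA, a protein that protects CTLA4 from degradation, as the target, so the comparison of the groups asks how immune cells differ between LC427 and vehicle tumours. The sources used here do not state how many animals a library pools, their age or the LC427 dose. With a single library for LC427 and a single one for vehicle, differences have no replicate check and no test was made. All intervals are 95% intervals for counting error only. The libraries held 28732435 UMIs for LC427 and 33711726 for vehicle. Summed member UMIs were 1934533 in LC427 and 983145 in vehicle, with medians of 1867 UMIs and 925 genes per LC427 member and 2675 UMIs and 1170 genes per vehicle member. Members were shallower than other myeloid cells, which had median UMIs of 2570 in LC427 and 3796 in vehicle. The cells of the 2 libraries shared 49 barcodes and the members shared 0.

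Inflammatory monocytes, in mice the Ly6C-high class, leave the bone marrow through the chemokine receptor CCR2 and enter inflamed tissue and tumours, where they can become macrophages or cells resembling dendritic cells. Interferon gamma from T and NK cells together with microbial or danger signals induces Nos2, the inducible nitric oxide synthase, which makes nitric oxide from arginine and is a classical trait of inflammatory monocytes and macrophages. Arginase 1, encoded by Arg1, uses the same amino acid and is a known trait of suppressive myeloid cells in tumours.

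The genes of set C encode products of different kinds. Ly6i (chr15:74979534-74983430, minus strand, GRCm38) and Ly6c2 (chr15:75108158-75111970, minus strand) are protein-coding genes of the same chromosome for small membrane-anchored proteins, and Ly6c2 encodes part of the surface antigen that defines the monocyte class. Fpr2 (chr17:17887824-17893952, plus strand) encodes a formyl peptide receptor that guides cells to microbial and mitochondrial peptides. Plac8 (chr5:100553725-100572245, minus strand) encodes a cysteine-rich protein abundant in monocytes and also present in lymphocytes. Nos2 lies at chr11:78920787-78960254, plus strand. Cfb (chr17:34856374-34862518, minus strand), complement factor B of the alternative pathway, is a marker of the class that the rule did not use. How reads that match several of the closely related Ly6, Gbp or Ifi200 genes were counted is not stated in the labels or files, so values of single members of these families are uncertain to that extent.

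Promoter stretches, from 250 bases before to 50 after a start annotated in RefSeq on GRCm38.p6, were taken from a table in which Fpr2, Plac8 and Ly6c2 have an entry. The 4 sequences below are those of 2 set C genes and of Gbp5 and Ifi205, 2 interferon genes among those highest in members. Capitals mark matches, on either strand, of the interferon-stimulated response element core (GAAA, any 2 bases, GAAA), the gamma-activated sequence (TTC, any 3 bases, GAA) and the kappa B motif (GGGA, any 2 bases, TTCC). The printed Ly6c2 promoter held no match, and Fpr2 held 1 gamma-activated sequence.
Ly6c2 promoter, chr15:75111922-75112221, minus strand: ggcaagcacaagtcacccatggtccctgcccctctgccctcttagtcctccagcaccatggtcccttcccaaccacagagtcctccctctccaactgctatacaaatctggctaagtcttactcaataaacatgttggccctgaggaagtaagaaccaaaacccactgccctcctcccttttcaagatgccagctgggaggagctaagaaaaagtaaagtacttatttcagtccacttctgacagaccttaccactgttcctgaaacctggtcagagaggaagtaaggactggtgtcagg
Fpr2 promoter, chr17:17887574-17887873, plus strand: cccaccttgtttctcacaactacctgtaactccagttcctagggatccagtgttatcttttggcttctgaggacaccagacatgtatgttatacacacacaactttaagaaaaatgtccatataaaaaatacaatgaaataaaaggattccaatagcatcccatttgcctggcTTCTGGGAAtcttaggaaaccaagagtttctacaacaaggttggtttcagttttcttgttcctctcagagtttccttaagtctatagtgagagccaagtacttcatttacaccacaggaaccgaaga
Gbp5 promoter, chr3:142496684-142496983, plus strand: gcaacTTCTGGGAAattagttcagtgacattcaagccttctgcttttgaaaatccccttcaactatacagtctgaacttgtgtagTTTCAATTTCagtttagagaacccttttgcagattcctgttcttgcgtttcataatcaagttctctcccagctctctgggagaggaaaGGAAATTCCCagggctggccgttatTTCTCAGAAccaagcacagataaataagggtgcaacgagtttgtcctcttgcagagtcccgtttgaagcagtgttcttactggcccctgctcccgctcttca
Ifi205 promoter, chr1:174031706-174032005, minus strand: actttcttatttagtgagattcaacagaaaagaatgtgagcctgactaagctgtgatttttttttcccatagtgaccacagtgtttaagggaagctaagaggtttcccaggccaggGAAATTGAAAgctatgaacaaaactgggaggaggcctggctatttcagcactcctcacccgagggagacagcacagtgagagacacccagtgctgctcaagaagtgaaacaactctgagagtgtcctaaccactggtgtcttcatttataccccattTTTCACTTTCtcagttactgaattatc
Gbp5, an interferon-induced guanylate-binding protein, had 1 response element, 2 gamma-activated sequences and 1 kappa B match, and Ifi205, an interferon-inducible gene of the Ifi200 family, had 2 response elements. Of the 14 interferon gamma response genes with a promoter entry, 8 (57.1%) held the response element, against 3.99% of the 27025 genes with a promoter. The gamma-activated sequence was present for 6 (42.9%) of them, against 9.55% of all genes, and the kappa B motif for 3 (21.4%), against 1.63%. The genes named below as highest in members had fewer matches. Of 10 with a promoter entry, 2 (20%) held the response element, and these were Gbp5 and Ifi205. The gamma-activated sequence was present for 2 (20%) of the 10 and the kappa B motif for 1 (10%). Matches did not overlap in the 4 sequences, and a match is a description of letters and shows no binding. RefSeq starts can differ from GENCODE gene bounds: the GENCODE gene Gbp5 begins at position 142493978, upstream of the printed stretch.

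All 5 genes of set C stood higher in members than in other myeloid cells in both libraries, as the rule made them. Ly6i was at 697 CPM (the UMIs of a gene scaled to a fixed total of all UMIs summed over the cells, interval 661 to 736) in LC427 members and 699 (647 to 753) in vehicle members, against 59.6 and 37.7 CPM in LC427 and vehicle other myeloid cells. Plac8 was at 2191 CPM in LC427 members and 1958 CPM in vehicle members, against 191 and 97.9 CPM in other myeloid cells, and Ly6c2 at 695 CPM in LC427 members and 790.3 CPM in vehicle members, against 44.04 and 38.4 CPM. Fpr2 was at 203 CPM in LC427 members and 144 CPM in vehicle members, against 18.6 and 11.9 CPM in other myeloid cells. The level of Nos2 was 159.7 CPM (142 to 179) in LC427 members and 250.2 CPM (219.9 to 284) in vehicle members, against 23.3 and 49.6 CPM. Cfb, outside the rule, was at 332 CPM in LC427 members and 207 CPM in vehicle members, against 63.4 and 44.3 CPM in other myeloid cells, higher by 5.24-fold in LC427 and 4.68-fold in vehicle. The same counts chose the members, so this too is a description.

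**Figure D1:**
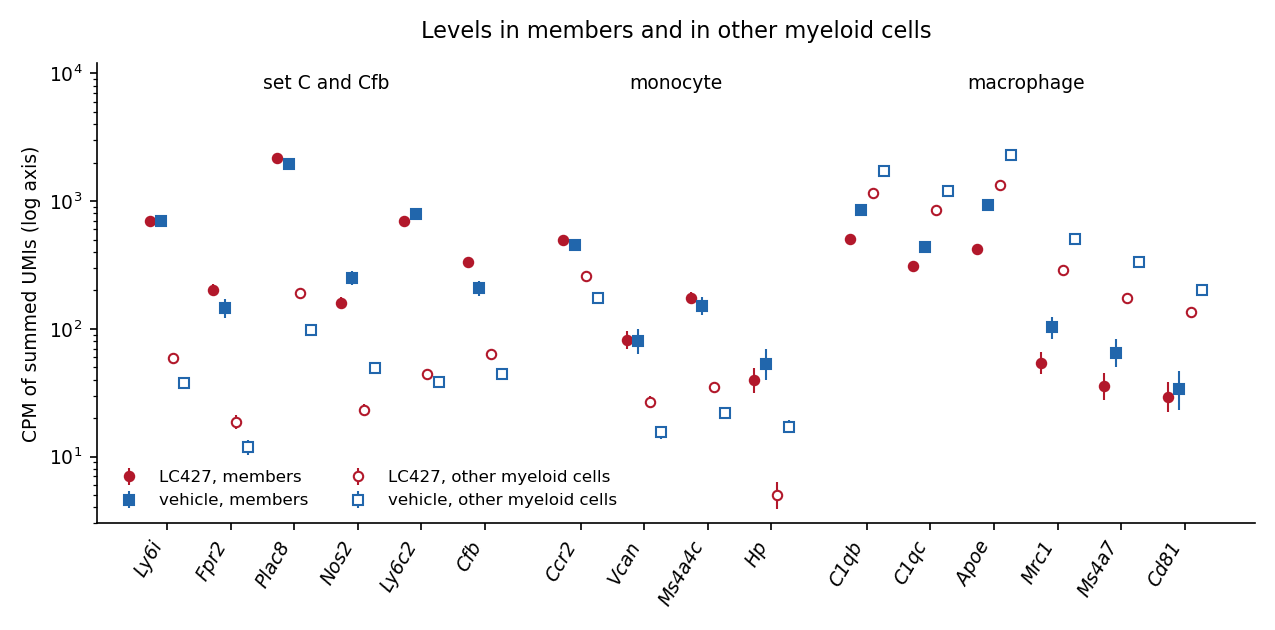
CPM of summed UMIs on a log axis for the set C genes and Cfb, 4 monocyte genes and 6 macrophage genes, with LC427 as circles and vehicle as squares, members filled and other myeloid cells open, and bars for exact Poisson 95% intervals. Members lie above other myeloid cells for the set C genes, Cfb and the 4 monocyte genes shown, and below them for the 6 macrophage genes shown, in both libraries. Of all 14 classical monocyte genes listed, 7 were at least 1.5-fold higher in members of both libraries and 2 lower.

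Members carried different combinations of the set C genes. Ly6i was detected in 66.3% of LC427 members and 63.2% of vehicle members, Plac8 in 87.6% and 82.3%, Ly6c2 in 66.5% and 67.2%, Fpr2 in 32.7% and 30.8%, and Nos2 in 22.6% and 27.8%. These genes were not confined to members. Nos2 was detected in 183 LC427 (4.65%) and 356 vehicle (9.91%) other myeloid cells, against 179 and 83 members. Ly6i was detected in 439 LC427 (11.2%) and 344 vehicle (9.58%) other myeloid cells, against 526 and 189 members. Of the LC427 members, 367 had exactly 2 of the genes, 277 had 3, 124 had 4 and 25 had all 5, and of the vehicle members 143 had 2, 108 had 3, 39 had 4 and 9 had all 5. The most common combination was Plac8 with Ly6c2 alone, in 175 LC427 members (22.1%) and 76 vehicle members (25.4%). The remaining 618 LC427 and 223 vehicle members had at least 1 of Ly6i, Fpr2 and Nos2.

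Plac8 and Ly6c2 are not specific to myeloid cells. In barcodes with a Cd3e UMI and none of the 3 myeloid gate genes, 331 in LC427 with a median of 1893 UMIs and 335 in vehicle with a median of 3140, Plac8 was detected in 43.5% and 56.4% and Ly6c2 in 26.3% and 44.8%. Ly6i was detected there in 0.604% and 2.99%, Fpr2 in 0.604% and 0.597%, Nos2 in 0.302% of LC427 and 0 of 335 vehicle barcodes, and Cfb in 2.11% of LC427 and 0 of 335 vehicle barcodes, where 0 allows a share of barcodes with a UMI of up to 1.095% by the exact Clopper-Pearson bound and sets no limit on cells that express the gene. Of the members with Plac8 and Ly6c2 alone, 14 in LC427 (8%) and 17 in vehicle (22.4%) held at least 2 markers of T and NK cells, against 53 (8.58%) and 11 (4.93%) of those with Ly6i, Fpr2 or Nos2.

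Barcodes just inside and just outside the rule were not separated in the same way in both libraries. Members with exactly 2 set C genes and 1 gene of another set numbered 256 in LC427, with Ly6i at 386 CPM and Cfb at 258 CPM, and 103 in vehicle, with Ly6i at 310.02 CPM and Cfb at 67.4 CPM. Just outside, 182 LC427 and 133 vehicle barcodes had at least 2 set C genes but tied with another set, with Ly6i at 286 and 332 CPM and Cfb at 157 and 217 CPM. Another 143 LC427 and 147 vehicle barcodes had at least 2 set C genes but more of another set. Those were deep, with medians of 5432 and 7458 UMIs, and had Ly6i at 197 and 115 CPM and the macrophage gene C1qb at 1012 and 1557 CPM. Ly6i and Cfb were higher just inside the rule than in tied barcodes in LC427, while in vehicle both were higher in the tied barcodes.

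Markers of monocytes and mature macrophages outside the rule were then compared as a description. The same counts chose the members, and the rule set set C against sets for other myeloid states. The comparison is therefore no independent check of the label. Of 14 classical monocyte genes, 7 were at least 1.5-fold higher in members of both libraries and 2 were lower, where 8.06% of 11369 genes were higher and 12.1% lower in both. Ccr2, the receptor for exit from the marrow, was at 497 CPM in LC427 members and 456 CPM in vehicle members, against 257 and 173 CPM in other myeloid cells. Ms4a4c, a membrane gene of monocytes, was higher by 4.96-fold in LC427 and 6.88-fold in vehicle, and Vcan, the matrix proteoglycan versican, by 3.06-fold in LC427 and 5.18-fold in vehicle. Hp, haptoglobin, was higher by 7.96-fold in LC427 and 3.08-fold in vehicle and the interferon-induced membrane gene Ifitm6 by 5.84-fold in LC427 and 15.7-fold in vehicle. The coagulation factor gene F13a1 went the other way, at 76.5 and 95.6 CPM in members of the LC427 and vehicle libraries, against 169 and 212 CPM in other myeloid cells, and so did Ly6c1, the close relative of Ly6c2, at 18.1 and 7.12 CPM in members of the LC427 and vehicle libraries, against 62.9 and 83.2 CPM in other myeloid cells. Of the 35 Ly6c1 UMIs of LC427 members, 77.1% came from 1 cell. The monocyte genes S100a4, at 1407 and 1219.6 CPM in members of the LC427 and vehicle libraries, against 1452 and 1484 CPM in other myeloid cells, and Fn1, at 1064 and 907 CPM in members of the LC427 and vehicle libraries, against 1374 and 1692 CPM in other myeloid cells, did not separate the members, and the 14 genes summed to 4832 and 4622 CPM in members, against 4282 and 4753 CPM in other myeloid cells.

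Mature macrophage genes were lower in members, 15 of 18 by at least 1.5-fold in both libraries and none higher. The complement component C1qb was at 509 and 855 CPM in members of the LC427 and vehicle libraries, against 1160.3 and 1716 CPM in other myeloid cells, and the lipid carrier Apoe was at 423 and 939.8 CPM in members of the LC427 and vehicle libraries, against 1345 and 2305 CPM in other myeloid cells. The mannose receptor Mrc1 was at 54.3 CPM in LC427 members and 103 CPM in vehicle members, against 289 and 504 CPM, and the membrane gene Ms4a7 at 35.7 CPM in LC427 members and 65.1 CPM in vehicle members, against 174 and 332 CPM. The 18 genes summed to 2962 and 3863 CPM in members, against 6864 and 11463 CPM in other myeloid cells. C1qa, a gate gene, was detected in 32.9% of LC427 members and 37.1% of vehicle members, against 68.4% and 78.3% of other myeloid cells.

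Markers of other cell types were also counted. Ly6g, the defining neutrophil gene, had 0 UMIs in members of both libraries, as had Camp and Ngp. Ly6g also had 0 UMIs in other myeloid cells of both libraries, so its absence does not set members apart. S100a8 was at 59.96 and 103 CPM in members of the LC427 and vehicle libraries, against 21.9 and 25.5 CPM in other myeloid cells. S100a9 was at 25.8 and 72.2 CPM in members of the LC427 and vehicle libraries, against 5.15 and 6.35 CPM in other myeloid cells. The 11 neutrophil markers summed to 133 CPM in LC427 members and 258 CPM in vehicle members, against 95.2 and 85.2 CPM in other myeloid cells. Of 6 measured neutrophil markers, 4 were at least 1.5-fold higher in members of both libraries and 1 lower. Ace, a gene of non-classical monocytes, was at 25.8 and 27.5 CPM in members of the LC427 and vehicle libraries, against 2.24 and 2.47 CPM in other myeloid cells. The 8 T and NK cell markers were each higher in members and summed to 221 and 290 CPM, against 96.9 and 75.1 CPM in other myeloid cells and 378 and 406 CPM in empty droplets, barcodes of 10 to 100 UMIs. The 9 dendritic cell markers summed to 109 CPM in LC427 members and 234 CPM in vehicle members. At least 2 markers of the dendritic, T and NK, B or neutrophil lists occurred in 90 LC427 members (11.3%) and 48 vehicle members (16.1%), against 8.03% and 7.93% of other myeloid cells. Without these barcodes S100a9 had 1 UMI in LC427 members and 0 in vehicle members, but S100a9 is itself a marker used to leave them out. Whether these barcodes are doublets or carry free RNA was not tested.

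The interferon gamma response list had 19 measured genes, and 18 of them stood at least 1.5-fold above other myeloid cells in members of both libraries, with median log2 ratios of 1.01 in LC427 and 1.06 in vehicle, against -0.05 and -0.04 over all genes. Gbp5, whose promoter is printed above, was at 147 and 102 CPM in members of the LC427 and vehicle libraries, against 41.4 and 29.2 CPM in other myeloid cells, and Gbp2 at 716 and 662 CPM in members of the LC427 and vehicle libraries, against 265 and 195 CPM in other myeloid cells. The T cell attracting chemokine Cxcl9 was at 1259 and 1156 CPM in members of the LC427 and vehicle libraries, against 797 and 626 CPM in other myeloid cells. Iigp1, an immunity-related GTPase, was the exception, higher by 1.18-fold in LC427 and 1.31-fold in vehicle.

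Type I interferon genes showed the same order in 12 of 17, with median log2 ratios of 1.27 in LC427 and 1.18 in vehicle. Isg15, a ubiquitin-like modifier, was higher in members by 2.89-fold in LC427 and 2.696-fold in vehicle, Irf7, a transcription factor of the interferon response, by 3.21-fold in LC427 and 2.52-fold in vehicle, and Ifi205 by 4.502-fold in LC427 and 5.82-fold in vehicle. Antigen presentation genes were also higher: 6 of 7 MHC class II genes passed 1.5-fold in both libraries. H2-Ab1, a chain of the class II molecule, was at 4713 and 4787 CPM in members of the LC427 and vehicle libraries, against 2521 and 1951 CPM in other myeloid cells, and Ciita, the transactivator of these genes, was higher by 2.07-fold in LC427 and 3.89-fold in vehicle. H2-DMa did not pass in LC427, at 784 against 559 CPM.

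Inflammatory cytokine genes were higher in members for 7 of 14. Il1b, the cytokine interleukin 1 beta, was at 2384 and 3247 CPM in members of the LC427 and vehicle libraries, against 747 and 928 CPM in other myeloid cells. Acod1, the enzyme that makes itaconate, was higher by 4.097-fold in LC427 and 3.87-fold in vehicle, Ptgs2, the inducible cyclooxygenase, by 2.38-fold in LC427 and 2.71-fold in vehicle, and Il27, a cytokine subunit, by 3.35-fold in LC427 and 3.24-fold in vehicle. Tnf was within 1.5-fold, at 39.8 and 44.8 CPM in members of the LC427 and vehicle libraries, against 30.4 and 39.3 CPM in other myeloid cells. Il6 stayed low, at 13.96 and 22.4 CPM in members of the LC427 and vehicle libraries, against 6.34 and 11.4 CPM in other myeloid cells.

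The enzymes around arginine divided. Ass1, argininosuccinate synthase, which renews arginine from citrulline for nitric oxide synthesis, was at 307 and 242 CPM in members of the LC427 and vehicle libraries, against 103 and 91.2 CPM in other myeloid cells. Gch1, which provides the cofactor of nitric oxide synthase, was higher by 1.81-fold in LC427 and 1.78-fold in vehicle. Arg1 was lower, at 1013 and 1579.6 CPM in members of the LC427 and vehicle libraries, against 1520.0 and 2552 CPM in other myeloid cells. Its level varied with the number of set C genes detected. For 2, 3, 4 and 5 genes it was 758, 983, 1460 and 1257 CPM in LC427 members. In vehicle members it was 921, 1753, 2269 and 3086 CPM, the last from 9 members and above other myeloid cells. Slc7a2, an arginine transporter, was higher in LC427 members and lower in vehicle members, at 249 and 186 CPM in members of the LC427 and vehicle libraries, against 136 and 216 CPM in other myeloid cells. Besides Cfb, the complement gene C3 was higher, at 210.4 and 374 CPM in members of the LC427 and vehicle libraries, against 74.5 and 135 CPM in other myeloid cells, while the receptor C3ar1 was lower, at 68.8 and 79.3 CPM in members of the LC427 and vehicle libraries, against 107 and 138 CPM in other myeloid cells.

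Genes of surface proteins and microbial killing were tallied next. Cd274, which encodes the checkpoint ligand PD-L1, was at 216 and 256 CPM in members of the LC427 and vehicle libraries, against 82.7 and 80.6 CPM in other myeloid cells, and 4 of 10 checkpoint and costimulatory genes were higher in both libraries. Of 9 adhesion genes 6 were higher, among them Itgal by 2.13-fold in LC427 and 2.46-fold in vehicle and Icam1 by 2.31-fold in LC427 and 3.001-fold in vehicle. The oxidase subunit Cybb was higher by 2.09-fold in LC427 and 2.53-fold in vehicle and the superoxide dismutase Sod2 by 2.53-fold in LC427 and 2.82-fold in vehicle. Of 9 measured pattern recognition genes 5 were higher, with Clec4e, a receptor for mycobacterial and cell-death ligands, higher by 2.74-fold in LC427 and 3.29-fold in vehicle. Clec7a and Mx1 were not analysed here.

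The chemokine and cell cycle genes went the other way. Of 12 chemokines 6 were lower in members in both libraries and only Ccl5 was higher. The monocyte attractants Ccl2, at 145 and 140.4 CPM in members of the LC427 and vehicle libraries, against 363 and 659 CPM in other myeloid cells, Ccl7, at 57.9 and 51.9 CPM in members of the LC427 and vehicle libraries, against 338 and 636 CPM in other myeloid cells, and Ccl12, at 91.5 and 62.05 CPM in members of the LC427 and vehicle libraries, against 470.0 and 682 CPM in other myeloid cells, were lower, while the neutrophil attractant Cxcl2 was at 1775 and 2461 CPM in members of the LC427 and vehicle libraries, against 1786 and 2642 CPM in other myeloid cells. Proliferation genes were lower in 9 of 10, with Top2a, a topoisomerase of dividing cells, at 39.8 and 33.6 CPM in members of the LC427 and vehicle libraries, against 162 and 147 CPM in other myeloid cells, and Stmn1, a microtubule regulator, at 50.1 and 29.5 CPM in members of the LC427 and vehicle libraries, against 209.8 and 219 CPM in other myeloid cells.

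**Figure D2:**
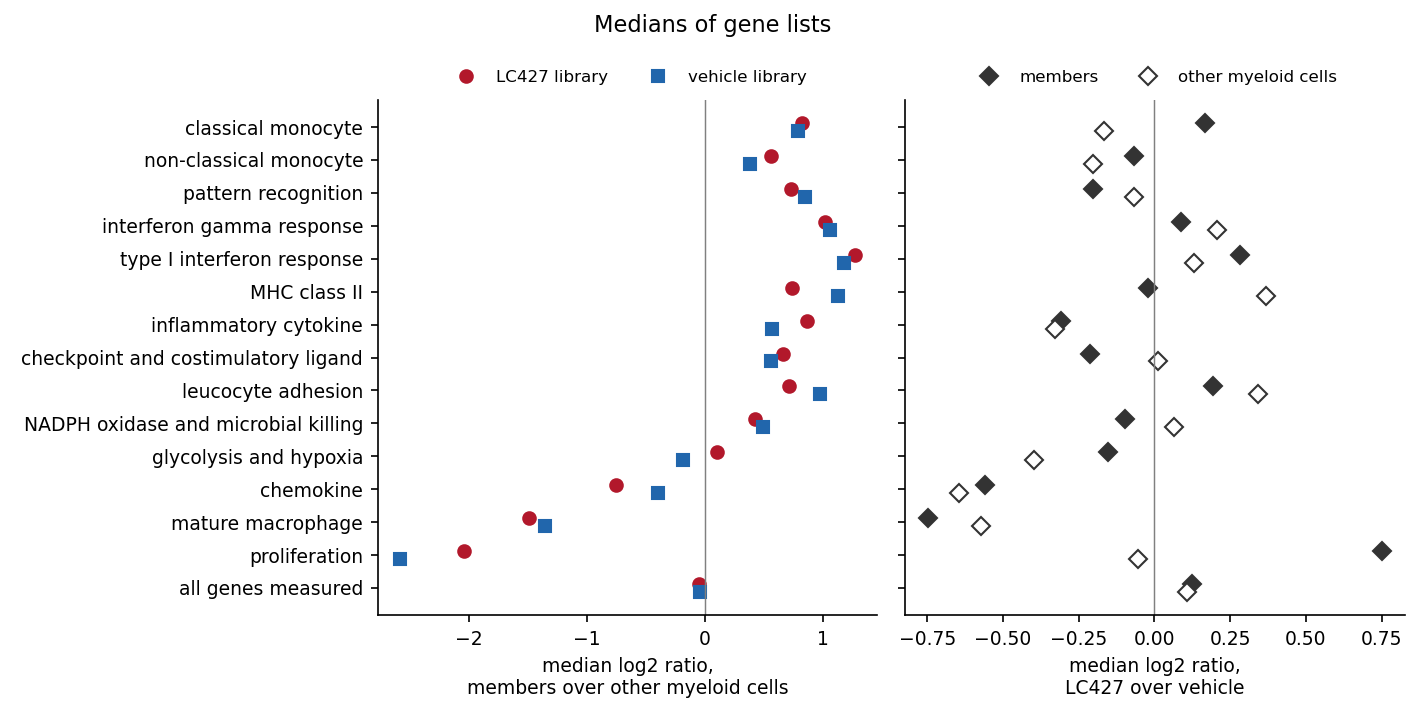
Median log2 ratio of each gene list. The left panel shows members over other myeloid cells in the LC427 (circles) and vehicle (squares) libraries, with interferon, class II and cytokine lists above 0 and macrophage and proliferation lists below. The right panel shows LC427 over vehicle in members (filled) and other myeloid cells (open).

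Ranked by size among genes outside the rule, 108 genes were at least 2-fold higher in members of both libraries and at least 50 CPM, and 80 were at most 0.5-fold. At 1.5-fold without the CPM filter, 8.06% of 11369 genes were higher in both libraries and 12.1% lower. How many genes met the CPM filter is not given. Besides Ms4a4c and Cfb, the highest ratios included those of B3gnt5, a glycosyltransferase of glycolipids, higher by 4.56-fold in LC427 and 6.03-fold in vehicle, Ifi205, Acod1, the collagen-binding integrin Itga1, higher by 4.07-fold in LC427 and 3.49-fold in vehicle, Gbp5, the orphan receptor Gpr141, the sorting receptor Sorl1, Il1b and the platelet activating factor receptor Ptafr, higher by 3.63-fold in LC427 and 3.19-fold in vehicle. The lowest ratios were those of Tm4sf1, at 6.72 and 4.07 CPM in members of the LC427 and vehicle libraries, against 56.9 and 63.4 CPM in other myeloid cells, the protease inhibitor Timp2, at 34.1 and 35.6 CPM in members of the LC427 and vehicle libraries, against 207 and 317 CPM in other myeloid cells, and Igfbp4, a binding protein of insulin-like growth factors, at 24.3 and 10.2 CPM in members of the LC427 and vehicle libraries, against 147 and 198 CPM in other myeloid cells. Ccl8, Ccl7, Ccl12, Col3a1, Cald1 and the cell cycle genes Hist1h2ap, Hist1h2ae, Ube2c and Prc1 made up the rest, with Ccl8 at 41.4 and 162 CPM in members of the LC427 and vehicle libraries, against 237 and 1853 CPM in other myeloid cells. Tm4sf1 and Cald1 mark tumour or stromal cells more than macrophages, and the 6 tumour markers summed to 28.9 CPM in LC427 members and 5.09 CPM in vehicle members, against 112 and 108 CPM in other myeloid cells.

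Members with a Nos2 UMI numbered 179 in LC427 (22.6%) and 83 in vehicle (27.8%), and were deeper, with median UMIs of 2098 against 1771 in members without Nos2 in LC427 and 3642 against 2481.5 in vehicle. Of 5053 genes outside the rule, 2.83% were at least 1.5-fold higher with a Nos2 UMI in both libraries and 5.42% lower. Slc7a2, the arginine transporter, was at 534 against 145 CPM in LC427 and 371 against 83.8 CPM in vehicle. Arg1 was at 1765 against 739 CPM in LC427 and 2964 against 811 CPM in vehicle and Ass1 at 461 against 251 CPM in LC427 and 365 against 174 CPM in vehicle. Of 6 measured arginine and nitric oxide genes 3 were higher with Nos2 in both libraries and 0 lower. Gch1 (1.43 and 1.15) and Odc1 (1.17 and 0.965) were within 1.5-fold. Asl had ratios of 0.777 (0.406 to 1.398) in LC427 and 0.573 (0.207 to 1.39) in vehicle. The elastase Mmp12 was at 261 against 62.1 CPM in LC427 and 199.5 against 72.8 CPM in vehicle, the activin subunit Inhba at 170.3 against 46.6 CPM in LC427 and 145 against 53.8 CPM in vehicle, and the fatty acid receptor Gpr84 at 58.1 against 19.7 CPM in LC427 and 51.3 against 4.74 CPM in vehicle. Cxcl3, Il1a and the ectoenzyme gene Cd38 completed the 8 genes of highest ratio, with ratios in LC427 and vehicle of 4.78 and 3.24, 2.48 and 4.62, and 2.45 and 3.33.

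The Nos2 split also separated complement, chemokine and monocyte genes. Cfb was higher with Nos2 by 1.57-fold in LC427 and 1.99-fold in vehicle, C3 by 1.91-fold and 2.099-fold, and Cxcl9 by 2.34-fold and 2.33-fold. Il1b had ratios of 1.202 and 1.099. Ccr2 was lower with Nos2, at 333 against 557 CPM in LC427 and 208 against 593 CPM in vehicle. Vcan was at 27.1 against 102 CPM in LC427 and 28.5 against 109 CPM in vehicle, and the decoy receptor Il1r2 at 25.2 against 65.6 CPM in LC427 and 25.7 against 64.8 CPM in vehicle. Glycolysis and hypoxia genes were higher with Nos2 in both libraries for 6 of 13, interferon gamma response genes for 7 of 19 and MHC class II genes for 0 of 7. Of 13 measured classical monocyte genes 5 were lower with Nos2 in both libraries and 0 higher, and of 15 mature macrophage genes 3 were higher and 0 lower. The libraries differed for the macrophage list, with median log2 ratios of 0.09 in LC427 and 0.99 in vehicle. Apoe had ratios of 0.886 in LC427 and 2.93 in vehicle, and C1qb 1.35 and 2.59. The 4 measured T and NK markers were all lower with Nos2, with Nkg7 at 29.03 against 81.1 CPM in LC427 and 11.4 against 182 CPM in vehicle, and the granzyme gene Gzmc at 3.87 against 93.8 CPM in LC427 and 0 against 152 CPM in vehicle. Gzmc rested on few cells, 10 LC427 and 11 vehicle members, with 39.3% and 33.3% of its UMIs in 1 cell. The lowest ratios also took in Gm9733, Eps8, Cbfa2t3 and the cytokine receptor chain Il2rb, the last at 0.231 and 0.3004. Members without Nos2 include those chosen by Plac8 and Ly6c2 alone, and the part of lymphocyte RNA in the split was not tested. Nos2 is itself a gene of the rule, so a member with it needed only 1 further set C gene. Plac8 had ratios of 0.577 in LC427 and 0.410 in vehicle and Ly6c2 0.572 and 0.406, while Ly6i and Fpr2 were higher with Nos2. The part of the rule in the monocyte and macrophage counts was not tested, and the split is a description.

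**Figure D3:**
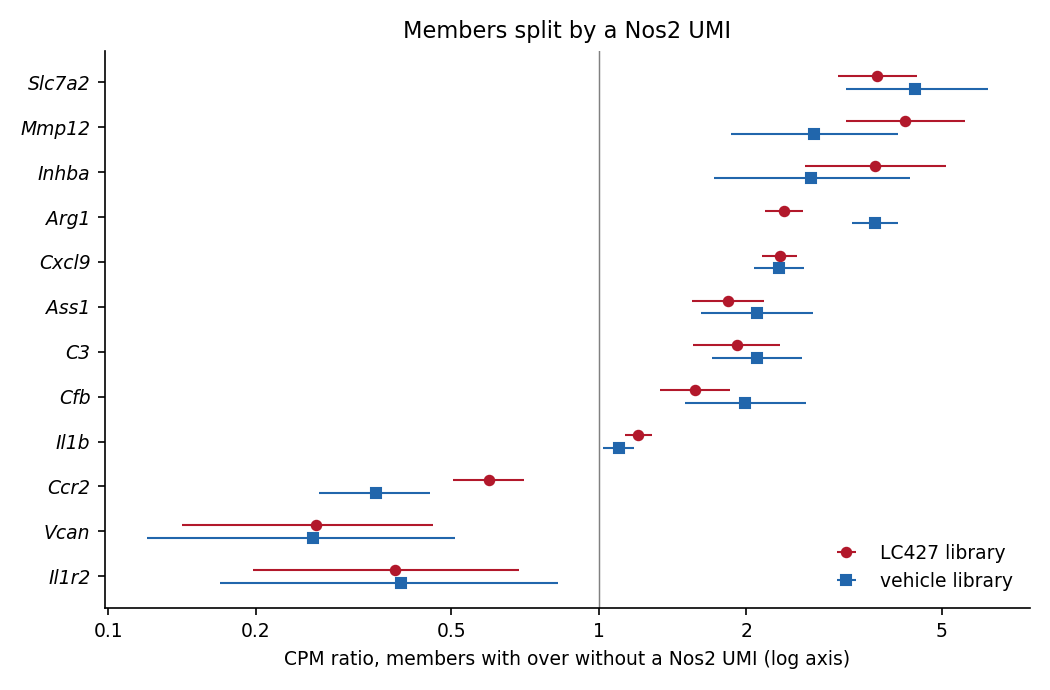
CPM ratio of members with over members without a Nos2 UMI on a log axis, for LC427 (circles) and vehicle (squares), with exact 95% intervals for counting error. Slc7a2 lies at 3.69 and 4.42 and Vcan at 0.265 and 0.261.

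Members made up 16.8% of LC427 myeloid cells (exact Clopper-Pearson interval 15.7% to 17.9%) and 7.68% of vehicle myeloid cells (6.87% to 8.57%). The genes of the rule themselves differed between the libraries outside the members. In other myeloid cells the LC427 over vehicle ratio was 1.95 for Plac8, 1.58 for Ly6i, 1.57 for Fpr2, 1.15 for Ly6c2 and 0.469 for Nos2. A share drawn with these genes is therefore given as a description and not read as a difference in abundance between the groups. With every cell thinned to 1000 UMIs the shares were 13.7% in LC427 and 5.82% in vehicle, and with at least 3 set C genes 9.01% and 4.01%.

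Within members, 1 set C gene, Nos2, was past 1.5-fold between the libraries. The LC427 over vehicle ratio was 0.998 (0.9097 to 1.096) for Ly6i, 1.12 (1.06 to 1.18) for Plac8, 0.8797 (0.805 to 0.962) for Ly6c2, 1.403 (1.16 to 1.71) for Fpr2 and 0.638 (0.538 to 0.758) for Nos2. Cfb was higher in LC427 members at a ratio of 1.602 (1.37 to 1.88), with 1.43 (1.296 to 1.58) in other myeloid cells. The members' Cfb ratio was below 1.5 under 5 alternatives, with log2 ratios of 0.45 with at least 2000 UMIs per cell, 0.39 with at least 3 set C genes, 0.50 with Plac8 left out, 0.54 without barcodes holding 2 markers of another type and 0.57 without members holding only Plac8 and Ly6c2. Over the 8138 genes outside the rule with at least 20 member UMIs, 1345 (16.5%) were at least 1.5-fold higher in LC427 members and 605 (7.43%) lower. The median log2 ratio over these genes was 0.13. In other myeloid cells, with more UMIs, 9.27% of 12660 genes were higher and 6.77% lower. Genes past 1.5-fold in members had a median of 52.5 UMIs over both libraries and the rest 100, and with a minimum of 50 UMIs 724 were higher and 300 lower.

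Of 19 interferon gamma response genes 0 passed 1.5-fold in either direction, with a median log2 ratio of 0.09. Gbp2 had a ratio of 1.08 (0.984 to 1.19) and Cxcl9 1.09 (1.01 to 1.17). Of 7 class II genes 0 passed, with Cd74, the invariant chain, at 0.686 (0.668 to 0.705) and H2-Ab1 at 0.985 (0.951 to 1.02). Without barcodes holding 2 markers of another type Cd74 was past 1.5-fold, at 0.661. The Cxcl9 and Cd74 intervals did not include 1, and a ratio within 1.5-fold does not show that the groups are alike.

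Mature macrophage genes were lower in LC427 members, 9 of 17 past 1.5-fold and 1 higher. The list had a median log2 ratio of -0.75. With cells thinned to 1000 UMIs that median was -0.25, with Plac8 left out of set C -0.40, as a mean of per-cell CPM -0.47 and with at least 2000 UMIs per cell -0.56, all within 1.5-fold. Apoe was at 423 CPM in LC427 members and 939.8 CPM in vehicle members, a ratio of 0.4505 (0.4095 to 0.495) and a log2 ratio of -1.15, against -0.34 in thinned cells. C1qb was at 509 CPM in LC427 members and 855 CPM in vehicle members and Mrc1 at 54.3 CPM in LC427 members and 103 CPM in vehicle members. Spp1, which encodes osteopontin, was the one higher gene, at 279 CPM in LC427 members and 175 CPM in vehicle members. Other myeloid cells had a median of -0.57 for the same list, with 8 of 18 lower, the same direction. The 18 genes summed to 2962 CPM in LC427 members and 3863 CPM in vehicle members. Empty droplets held more, 4503 CPM in LC427 and 6377 CPM in vehicle, also lower in LC427. The part of free RNA in the values of this list was not tested. Inflammatory cytokines were lower for 4 of 12 in LC427 members, with Nlrp3, the inflammasome sensor, at a ratio of 0.632 (0.511 to 0.783) and Il1a at 0.526 (0.359 to 0.771), and Il1b within 1.5-fold at 0.734 (0.702 to 0.768).

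Of 12 chemokines, 5 were lower in LC427 members and 0 higher. Ccl5 was at 574 CPM in LC427 members and 2181 CPM in vehicle members, a ratio of 0.263 (0.244 to 0.283), against 0.492 (0.47 to 0.515) in other myeloid cells, and was detected in 250 LC427 and 140 vehicle members. Ccl5 is also a gene of T and NK cells, whose markers summed to 221 CPM in LC427 members and 290 CPM in vehicle members, and without barcodes holding 2 markers of another type its ratio was 0.212. The eosinophil attractant Ccl24 was at 6.203 CPM in LC427 members and 52.9 CPM in vehicle members, a ratio of 0.117 (0.05698 to 0.223), in 6 LC427 and 16 vehicle members, with 0.0949 in other myeloid cells. The neutrophil attractants Cxcl1, at 7.75 CPM in LC427 members and 47.8 CPM in vehicle members, and Cxcl3, at 38.3 CPM in LC427 members and 85.4 CPM in vehicle members, were lower too. Without barcodes holding markers of another type the Cxcl1 ratio was 0.107, against 0.162 with them. In each library 1 cell held a large share: 41.9% of the Cxcl3 UMIs of LC427 members and 44.0% of those of vehicle members.

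Type I interferon genes had 5 of 17 higher in LC427 members and 0 lower, beside 16.5% of all genes higher. These were Ifi204 at 392 CPM in LC427 members and 178 CPM in vehicle members, a ratio of 2.201 (1.87 to 2.61), Ifi205 at a ratio of 1.55 (1.28 to 1.89), Ifit1 at 1.91 (1.17 to 3.26), Ifit2 at 1.59 (1.04 to 2.51) and Ifit3 at 1.83 (1.02 to 3.49). In other myeloid cells Ifi204 and Ifi205 had ratios of 1.93 and 2.005, and the Ifit genes 1.13, 0.949 and 0.971. Without barcodes holding 2 markers of another type Ifit2 was within 1.5-fold, at 1.47. The list median was 0.28 on the log2 scale, beside 0.13 over all genes. It was 0.12 in thinned cells and 0.78 with at least 3 set C genes. Isg15 had a ratio in members of 1.07 (0.927 to 1.23). Ifi207, a further member of the Ifi200 family, was at 314 CPM in LC427 members and 114 CPM in vehicle members, a ratio of 2.76 (2.25 to 3.41), with 2.88 in other myeloid cells. Proliferation genes were higher in LC427 members for 4 of 7 and lower for 1, from few UMIs, with Mki67 at 31.02 CPM in LC427 members and 14.2 CPM in vehicle members and Stmn1 at 50.1 CPM in LC427 members and 29.5 CPM in vehicle members. Without barcodes holding 2 markers of another type the Stmn1 ratio was 1.24 (0.771 to 2.07), against 1.7 with them. The list median was 0.75 on the log2 scale, 0.19 in thinned cells, 0.29 as a mean of per-cell CPM, 0.58 with no minimum of UMIs for a gene and 1.19 with Plac8 left out.

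Among single genes, 196 met the rule for named genes on the higher side and 143 on the lower. At 1.5-fold alone, 16.5% of 8138 genes were higher and 7.43% lower. How many genes met the level filters of the rule is not given, so the counts of named genes have no share beside them. The first higher gene, Dennd5b, a regulator of vesicle traffic, was at 66.7 CPM in LC427 members and 9.15 CPM in vehicle members, a ratio of 7.28 (3.72 to 16.3), from 49 LC427 and 7 vehicle members. Havcr2, which encodes the checkpoint receptor TIM-3, was at 111 CPM in LC427 members and 33.6 CPM in vehicle members, a ratio of 3.31 (2.29 to 4.93), against 1.84 (1.65 to 2.05) in other myeloid cells. Spint1, a serine protease inhibitor, had a ratio of 2.63 (2.05 to 3.398), Hopx, a homeodomain cofactor, 2.14 (1.71 to 2.71), and Kdm1a, a histone demethylase, 2.31 (1.78 to 3.04). Mitd1, of the abscission machinery, had 2.84 (1.79 to 4.699), the adaptor Sla 2.25 (1.67 to 3.07) and the adhesion molecule Jaml 2.18 (1.64 to 2.94). All 10 were also at least 1.5-fold higher in LC427 among other myeloid cells, from 1.603 for Hopx to 3.24 for Jaml. Sizes moved with the settings: the log2 ratio of Dennd5b in members was 2.86, but 1.33 in thinned cells and 3.86 with Plac8 left out, and in thinned cells Sla was at 2.29 against 1.17 and Jaml at 1.74 against 1.12. With Plac8 left out Jaml was at 2.00 and Mitd1 at 2.29 against 1.51.

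On the lower side, mt-Atp8, a mitochondrial subunit of ATP synthase, was at 467 CPM in LC427 members and 1473 CPM in vehicle members, and the median mitochondrial share per member was 1.20% in LC427 and 1.91% in vehicle. Mgst1, a microsomal glutathione transferase, was at 41.9 CPM in LC427 members and 125 CPM in vehicle members, a ratio of 0.335 (0.2496 to 0.447), and Ifitm2, an interferon-induced membrane protein, at 343 CPM in LC427 members and 815 CPM in vehicle members. Ifitm6, a monocyte gene, was at 22.2 CPM in LC427 members and 79.3 CPM in vehicle members, a ratio of 0.2802 (0.188 to 0.412), against 0.753 (0.523 to 1.07) in other myeloid cells, and at 0.3403 without barcodes holding markers of another type. In thinned cells its log2 ratio was -3.00, against -1.84. Genes of mature dendritic cells, Ccr7, Ccl22 and Serpinb6b, had ratios of 0.252, 0.334 and 0.339, but rested on 11, 8 and 17 vehicle members. Without barcodes holding 2 markers of another type, Ccr7 had 10 UMIs in LC427 members and 0 in vehicle members, and Ccl22 stood at 8.03 (interval 2.05 to 69.2) and Serpinb6b at 9.03 (1.43 to 376), above 1. Ccr7 is itself a dendritic marker used to leave those barcodes out, so its value without them is partly set by that choice. With at least 3 set C genes the Ccr7 log2 ratio was -0.92, against -1.99.

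**Figure D4:**
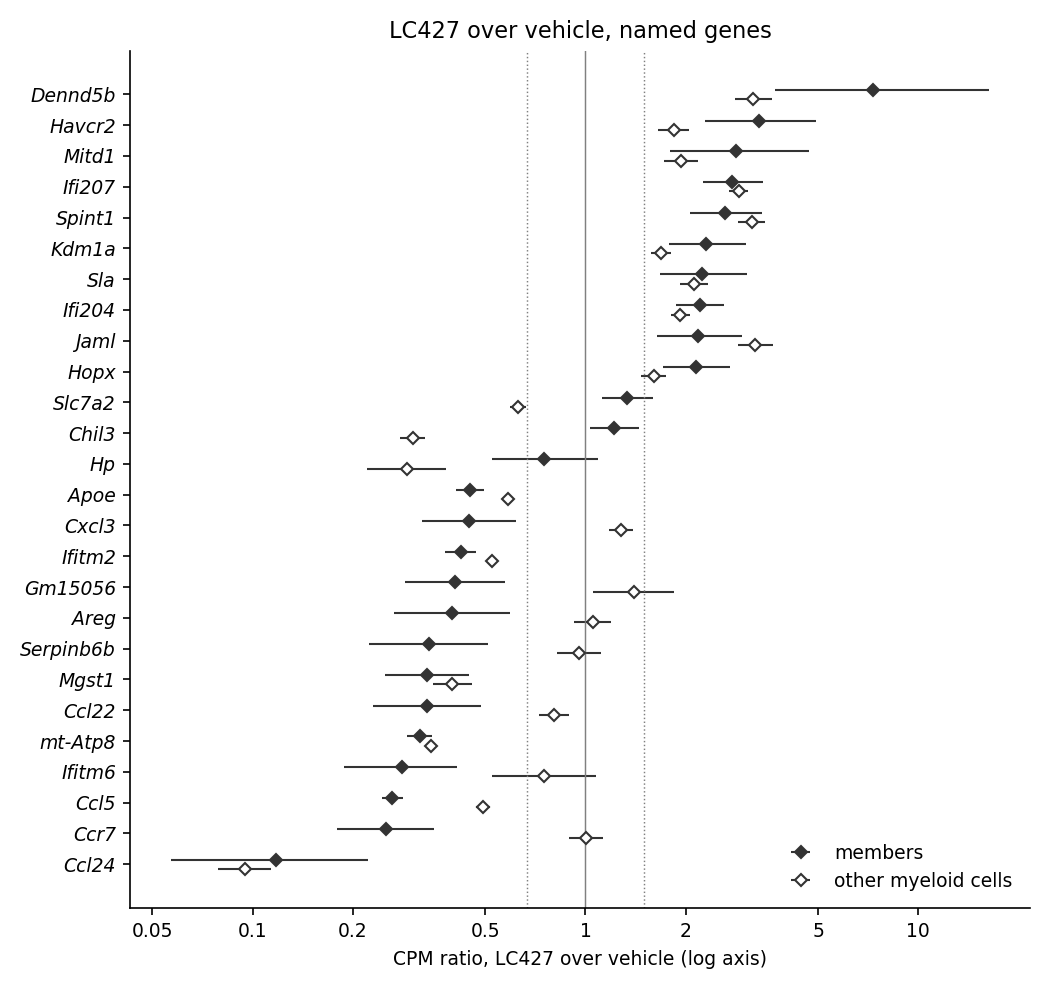
LC427 over vehicle CPM ratio on a log axis for the named genes, members filled and other myeloid cells open, with exact 95% intervals for counting error and dotted lines at 1.5-fold. Dennd5b lies farthest to the right and Ccl24 farthest to the left in members, and Chil3, Slc7a2 and Hp lie higher in members than in other myeloid cells.

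For a few genes the LC427 over vehicle ratio of members stood apart from that of other myeloid cells, with intervals that did not overlap and a gap of at least 1 on the log2 scale, 4 higher and 11 lower. The number of genes that met the level filters is not given, so these counts have no share beside them. Chil3, a chitinase-like protein of monocytes and alternatively activated macrophages, was at 252 CPM in LC427 members and 206 CPM in vehicle members, against 50.3 and 166 CPM in other myeloid cells, with ratios of 1.22 (1.04 to 1.45) in members and 0.303 (0.278 to 0.329) in other myeloid cells. Slc7a2 had ratios of 1.34 (1.12 to 1.59) and 0.628 (0.593 to 0.664), and Hp 0.753 (0.523 to 1.09) and 0.291 (0.2198 to 0.38). The lower ones included Cxcl3, with 0.448 (0.323 to 0.619) and 1.28 (1.18 to 1.39), Gm15056, with 0.405 (0.286 to 0.572) and 1.39 (1.05 to 1.85), and the growth factor gene Areg, with 0.398 (0.266 to 0.593) and 1.05 (0.925 to 1.19). Areg was detected in 21 LC427 and 10 vehicle members, and with at least 3 set C genes its log2 ratio in members was 1.65 in place of -1.33. The Cxcl3 log2 ratio in members was -1.16, but -0.32, within 1.5-fold, with at least 3 set C genes, -2.65 with Plac8 left out and -2.41 with at least 2000 UMIs per cell. Chil3 had a log2 ratio of 0.29 in members, and of -0.074 once cells were thinned to 1000 UMIs and -0.084 with Plac8 left out of set C.

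The authors' deposited tables of cluster means, from separate clusterings of each library, place these genes in few clusters. In the authors' deposited table for LC427, with 11 clusters, Ly6i was highest in clusters 5 and 2, with mean counts of 1.01 and 0.915, and Plac8, Fpr2 and Cfb had their highest means in the same pair. In the authors' deposited table for vehicle, with 13 clusters, Ly6i was highest in clusters 9 and 4, at 0.875 and 0.806, as were Fpr2, Plac8 and Cfb. The authors' deposited table puts Nos2 highest in cluster 5 of LC427, at 0.267, followed by cluster 11 at 0.237, and in cluster 13 of vehicle, at 0.524, followed by cluster 9 at 0.502. Ly6c2 in the authors' deposited table for vehicle was highest in clusters 7 and 5, at 1.35 and 1.27, where Cd3e was among its 3 highest means.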

How the data were processed

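Droplet libraries of CD45-positive tumour cells, 1 from LC427 and 1 from vehicle mice, were grouped by the treatment label. The authors deposited unfiltered UMI counts over 32285 genes, mapped to GRCm38. Cell Ranger 3.0.1 and Seurat 3 are named per the submitters' processing notes, and Cell Ranger 4 per the file headers. The authors also deposited, per cluster, a mean count signal, of which a few values are given, and log2 fold changes, which were not used. Rows sharing a symbol were summed. UMIs were summed over members and over other myeloid cells of each library with scipy 1.17.1 and given as CPM with exact Poisson intervals, ratios with exact conditional binomial intervals. A count of 0 stood at 3 counts. The rule's genes were left out of counts over genes. Genes named between the groups had 50 CPM in 1 library, 20 UMIs, no higher level in empty droplets than in the higher members, and a 1.5-fold ratio, ranked by the interval bound nearest 1. Genes named against other myeloid cells had 50 CPM and a 2-fold ratio in both libraries. Genes named by Nos2 detection had a 1.5-fold ratio in both. Scrublet (scanpy 1.11.5) called 0 doublets and was taken not to have worked, so doublets were kept. Ratios and intervals were tested on simulated data. Members, lists and naming rules were chosen with earlier results of these data known. Alternatives were other cell and gene minimums, thinning, stricter rules, and, chosen after the data were seen, leaving out barcodes with markers of another type or with only Plac8 and Ly6c2 of set C. A few genes are not reported here.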

Additional observations from a re-analysis of the deposited data

Results flagged for a closer look

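Col3a1, a collagen gene of fibroblasts, had 26 UMIs in LC427 members and 1 in vehicle members, a ratio of 13.2 (interval 2.17 to 542), while in other myeloid cells it was lower in LC427, at 0.4398 (0.409 to 0.473). The gap between the members' and the other cells' log2 ratios was 4.91. The opposite directions drew attention, and with 1 library a group the difference was not tested. The members' level was 13.4 CPM in LC427 and 1.02 CPM in vehicle, against 102 and 132 CPM in empty droplets.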

How the results depend on the processing

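No paired analysis was possible because each group had 1 library. The share of myeloid cells that were members moved with the rule. In LC427 it was 11.9% with at least 2000 UMIs per cell, 13.7% with cells thinned to 1000 UMIs, 9.01% with at least 3 set C genes, 8.61% with Plac8 left out of set C and 13.6% without members holding only Plac8 and Ly6c2. In vehicle it was 5.82% thinned, 4.01% with 3 set C genes, 3.65% without Plac8 and 5.85% without members holding only Plac8 and Ly6c2. Genes past 1.5-fold in members numbered 724 higher and 300 lower with a minimum of 50 UMIs, 2841 and 3272 with no minimum, and 412 and 138 at 2-fold. Chil3 had a log2 ratio of -0.074 in thinned cells and -0.084 without Plac8, against 0.29. Areg had 1.65 with 3 set C genes and 0.40 without Plac8, and Ccl22 had 3.01 without barcodes holding markers of another type. The cause was not tested. Of 26 named genes, 21 had a value under every setting run, and 16 of these were past 1.5-fold the same way under each. The other 5 fell under the UMI minimum in at least 1 setting: Ccr7, Serpinb6b, Ccl22, Ccl24 and Areg. Of 283 list medians under these settings 0 past 1.5-fold turned their direction and 45 moved by over 0.25 on the log2 scale. That count of 0 leaves out lists whose main median was within 1.5-fold. The T and NK cell list had a main median of -0.24, but -1.03 in thinned cells and 2.02 with Plac8 left out. Depth limits single genes: those past 1.5-fold in members had a median of 52.5 UMIs over both libraries, against 100 for the rest.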

Other observations

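Glycolysis and hypoxia genes did not set members apart, with 1 of 13 at least 1.5-fold higher than in other myeloid cells of both libraries. Pfkp, a phosphofructokinase, was higher by 1.66-fold in LC427 and 1.69-fold in vehicle. Between the libraries, Gapdh, a glycolytic enzyme, was at 895 CPM in LC427 members and 1675 CPM in vehicle members, with 925 and 1964 CPM in other myeloid cells, and Vegfa, the vascular growth factor, at 159 CPM in LC427 members and 338 CPM in vehicle members, while the hexokinase Hk2 was higher in LC427 members, at 227 CPM in LC427 members and 143 CPM in vehicle members. Of 11 immediate early and heat shock genes of tissue dissociation, 0 were higher in members of both libraries and 1 lower, with Fos at 969 and 1027 CPM in members of the LC427 and vehicle libraries, against 829 and 874 CPM in other myeloid cells. The heat shock gene Hspa1a was at 8.27 CPM in LC427 members and 37.6 CPM in vehicle members.

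Within the Ly6 family outside the rule, Ly6a, the surface antigen Sca-1, was at 1079.8 and 1326 CPM in members of the LC427 and vehicle libraries, against 532 and 498 CPM in other myeloid cells, Ly6e at 974 and 1200.2 CPM in members of the LC427 and vehicle libraries, against 638 and 644 CPM in other myeloid cells, and Ly6d at 11.9 and 22.4 CPM in members of the LC427 and vehicle libraries, against 2.16 and 3.43 CPM in other myeloid cells, all higher in members by at least 1.5-fold, and Ly6c1 was lower. Ly6d rested on few cells, 7 LC427 and 6 vehicle members, with 21.7% and 31.8% of its UMIs in 1 cell. Without barcodes holding 2 markers of another type it was at 11.6 CPM in LC427 members and 5.15 CPM in vehicle members, from 18 and 4 UMIs.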
